A study of Rattus norvegicus with 9 samples.

Results

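The transcripts of 10 antioxidant enzyme genes were examined in the left ventricle of rats after myocardial infarction (MI). The genes were chosen by name: the superoxide dismutases Sod1, Sod2 and Sod3, catalase (Cat), the glutathione peroxidases Gpx1, Gpx3 and Gpx4, the peroxiredoxins Prdx3 and Prdx5, and thioredoxin 2 (Txn2). Each name occurred in 1 of the 35843 genes listed, so the 10 members were 10 of 35843 genes. Superoxide dismutases turn superoxide, which leaks from the respiratory chain and from oxidases, into hydrogen peroxide. Catalase, glutathione peroxidases and peroxiredoxins then reduce the peroxide, the last of these with electrons from thioredoxin. The enzymes work in separate places: Sod1 and Gpx1 mainly in the cytosol, Sod2, Prdx3 and Txn2 in mitochondria, Prdx5 in mitochondria, peroxisomes and cytosol, Cat in peroxisomes, and Sod3 and Gpx3 outside the cell. The heart, rich in mitochondria, is known to depend on them when oxygen supply is disturbed.

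RNA-seq was carried out on left ventricular tissue of male Sprague-Dawley rats 28 days after surgery, with 3 libraries in each of 3 groups. The study's methods say that molecular work used mainly the edge of the infarct, with the scar cut away, and the matching place in the Sham hearts, while its account of the RNA-seq speaks of infarct myocardium. Each sample title carries a pair of sub-numbers, and whether a library holds tissue of more than 1 heart is not given in the sources used here, so a rat stands for a library in what follows. Group Sham underwent surgery without ligation and group MI had the left anterior descending coronary artery ligated, and both were given saline by gavage. Group MI + DAPA (1st d), called group DAPA below, was ligated as well and received dapagliflozin (DAPA), an inhibitor of the sodium-glucose cotransporter SGLT2, at 1 mg/kg by gavage daily from the 1st day of dosing. No group received DAPA without infarction, and the labels name no genetic change in any rat. Values are FPKM, that is, fragments per kilobase of transcript scaled between libraries, so levels of different genes can be set side by side per length. In bulk tissue, fewer cells of a type and less RNA per cell cannot be told apart.

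The libraries held between 13597239 and 17210909 recovered reads, of which the mitochondrial genome took 61.1% to 66.9% in the Sham rats, 7.07% to 19.1% in the MI rats and 17.5% to 32.0% in the DAPA rats. Reads on other genes therefore numbered 5702454 to 6570698 in group Sham, against 12635945 to 13171891 in group MI and 11440726 to 12082280 in group DAPA, and nuclear genes were measured with the least precision in group Sham. Heart tissue was recognised by the cardiomyocyte markers, 20 of 22 of which were listed, with a summed FPKM of 9848 to 14144 in group Sham, 3194 to 16476 in group MI and 12963 to 27372 in group DAPA. MI replicate 2 stood apart, with the lowest cardiomyocyte sum and a summed FPKM of the B and plasma cell markers of 3855, against 35.9 and 670 in the other MI rats. Sham replicate 2 differed as well, with red blood cell markers summing to 5842 FPKM, against 293 and 730 in the other Sham rats. Its smooth muscle markers summed to 408 FPKM, against 1447 and 1238. Leaving out MI replicate 2, or any other library, left the number of members called at 4 in MI vs. Sham and at 0 in DAPA vs. MI. Fibroblast markers, all 11 listed of which were called higher in MI vs. Sham, summed to 546 to 885 FPKM in group Sham, 4393 to 8542 in group MI and 2849 to 4880 in group DAPA. Macrophage markers, with 13 of 13 called higher, summed to 166 to 521, 2023 to 3638 and 1106 to 2055 FPKM in the same order. Endothelial markers, of which 6 of 8 tested were called lower in group MI, summed to 1127 to 1345, 324 to 417 and 451 to 478 FPKM, with Cldn5 at 0 in all 9 rats. The part of these shifts in the results that follow was not tested.

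Upstream sequences are shown for Sod2, Gpx1 and Gpx3, which were higher together after MI, and for Sod1, which was not, because antioxidant enzyme genes are textbook targets of the transcription factor NRF2. The windows are the 250 bases before the start of the gene in RefSeq (rat build GRCr8), printed along the gene's strand, and 9 of the 10 members had one. Capitals mark matches to the core of the antioxidant response element, TGACNNNGC, or to the GC box, GGGCGG, on either strand; the GC box was added to the search after the values were known. No match to one motif overlapped a match to the other in these windows.
Sod2, chr1:50050169-50050418, minus strand: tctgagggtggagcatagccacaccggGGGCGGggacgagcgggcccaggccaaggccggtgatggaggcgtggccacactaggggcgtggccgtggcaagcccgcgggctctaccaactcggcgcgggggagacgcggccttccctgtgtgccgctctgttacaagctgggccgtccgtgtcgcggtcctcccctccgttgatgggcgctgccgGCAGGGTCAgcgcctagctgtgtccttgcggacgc
Gpx1, chr8:117905212-117905461, plus strand: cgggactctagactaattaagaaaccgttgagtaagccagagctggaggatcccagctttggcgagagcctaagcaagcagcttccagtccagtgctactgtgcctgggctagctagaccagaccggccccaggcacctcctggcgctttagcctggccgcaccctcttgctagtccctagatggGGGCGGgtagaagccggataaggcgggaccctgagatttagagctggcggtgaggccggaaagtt
Gpx3, chr10:39529085-39529334, plus strand: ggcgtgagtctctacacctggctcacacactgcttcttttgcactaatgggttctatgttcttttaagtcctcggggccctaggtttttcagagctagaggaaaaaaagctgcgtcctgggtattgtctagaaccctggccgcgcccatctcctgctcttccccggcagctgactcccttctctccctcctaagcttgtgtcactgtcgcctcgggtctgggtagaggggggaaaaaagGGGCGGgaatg
Sod1, chr11:42942573-42942822, plus strand: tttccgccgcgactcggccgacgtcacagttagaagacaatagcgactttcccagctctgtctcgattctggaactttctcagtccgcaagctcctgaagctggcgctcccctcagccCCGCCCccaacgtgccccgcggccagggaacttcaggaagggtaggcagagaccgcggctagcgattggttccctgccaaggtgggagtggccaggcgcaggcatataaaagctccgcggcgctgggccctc

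Among the 9 members with a window, the core of the antioxidant response element was matched only in Sod2, from 35 to 27 bases before the start and on the opposite strand. The same core was matched in 10.1% of the 33469 rat windows searched. The GC box was matched in 8 of the 9 members, all except Cat, and in 30.5% of all windows. A match is a description of letters and not of a bound site, and Sod3 is named only, since no window was given for it.

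Levels of the members spanned a wide range. In group Sham, Sod1 (316 ± 48.4 FPKM, SD, n = 3), Gpx3 (313 ± 105) and Gpx1 (246 ± 55.3) stood at the top, with overlapping ranges among neighbours. Prdx5 and Txn2 followed at 72.9 ± 14.3 and 58.2 ± 9.95 FPKM. Cat, Sod2, Prdx3 and Sod3 lay close together, with means from 33.8 down to 26.8 FPKM and no gap between neighbours. After MI the order changed: Gpx3 (1059 ± 336 FPKM) lay above Gpx1 (576 ± 106) and Gpx1 above Sod1 (198 ± 51.5) without overlap, and Sod3 (133 ± 43.7) had moved from ninth place to overlap Sod1. By mean FPKM, Gpx3 moved from place 212 among all genes in the Sham rats to place 52 after MI and place 50 with DAPA.

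**Figure D1:**
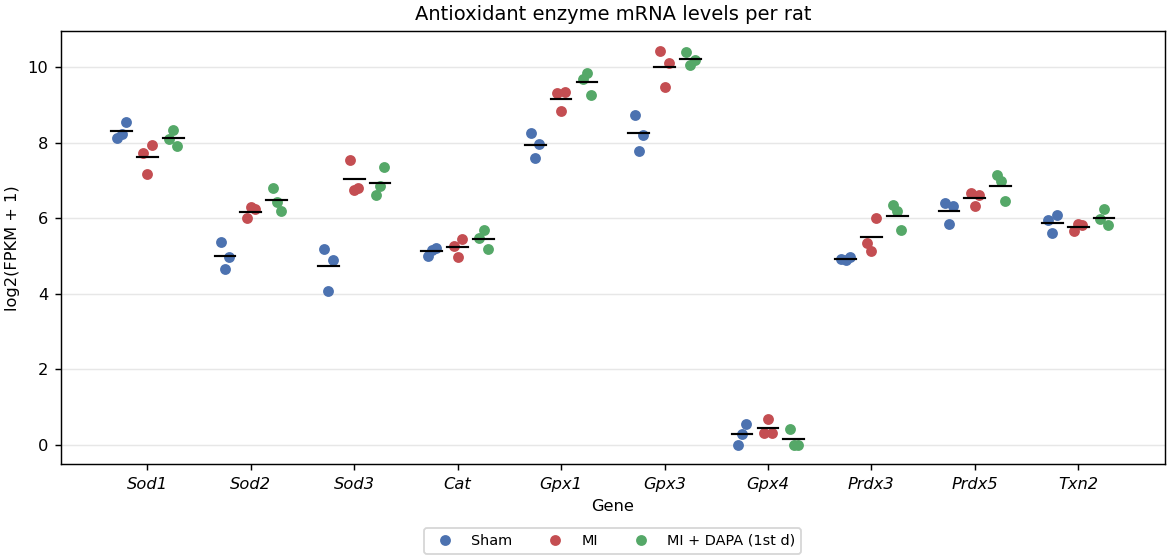
Level of each of the 10 genes as log2(FPKM + 1), with a point for each of the 3 rats of a group and a black bar for the group mean. Sod2, Sod3, Gpx1, Gpx3 and Prdx3 lie above the Sham rats in every MI rat, Sod1 lies below them, and Gpx4 stays near 0.

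Compared with group Sham, group MI had more transcript of the extracellular enzymes Sod3 and Gpx3, of Gpx1 and of the mitochondrial Sod2. These 4 of the 9 members tested were called higher and 0 lower, where a call needs an unadjusted limma p under 0.05 and a log2 fold change beyond 1 in size. Among all 13485 genes tested, 12.1% were called higher and 10.3% lower. At a Benjamini-Hochberg adjusted limma p under 0.05, the same count of 4 members passed. Beyond these, Prdx3 lay higher and Sod1 lower in every MI rat than in any Sham rat, below the fold change needed, while Prdx5, Cat and Txn2 overlapped between the groups. The members' median log2 fold change was 0.57, and that of all genes tested was -0.01.

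Sod3, the secreted copper-zinc superoxide dismutase that binds the extracellular matrix, had the largest difference of the members. Its FPKM was 35.5, 15.8 and 28.9 in the Sham rats, 184, 106 and 110 in the MI rats and 96.2, 115 and 162 in the DAPA rats. Both infarcted groups lay wholly above group Sham and overlapped each other. The log2 fold change of group MI over group Sham was 2.30 (SE 0.34, limma adjusted p = 0.00297).

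Sod2, the manganese enzyme of the mitochondrial matrix, measured 39.9, 24.0 and 30.3 FPKM in group Sham, 62.5, 77.3 and 74.7 in group MI, and 109, 85.7 and 71.8 in group DAPA. No Sham rat reached the lowest infarcted rat. Its log2 fold change in MI vs. Sham was 1.18 (SE 0.20, limma adjusted p = 0.00523). RefSeq lists 1 Sod2 pseudogene in the rat, and how reads were divided between such copies and the gene was not tested; the same holds for 1 copy each of Prdx3 and Txn2.

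Sod1, the cytosolic copper-zinc enzyme, had the opposite sign. It measured 278, 301 and 371 FPKM in the Sham rats, 209, 142 and 244 in the MI rats and 272, 321 and 238 in the DAPA rats. The MI rats lay below all Sham rats, and the DAPA-treated rats overlapped both groups. The log2 fold change in MI vs. Sham was -0.70 (SE 0.23, limma unadjusted p = 0.020, adjusted p = 0.0511), short of a call. On a scale where the median of all genes moves, the sign of this value moves with it, as described below with the scalings.

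Gpx3, the glutathione peroxidase secreted into plasma and the matrix, was the most abundant member in both infarcted groups. Its FPKM was 427, 219 and 294 in group Sham, 1373, 704 and 1100 in group MI, and 1347, 1065 and 1157 in group DAPA. Every infarcted rat exceeded every Sham rat, and the DAPA rats fell within the range of the MI rats. The log2 fold change in MI vs. Sham was 1.75 (SE 0.33, limma adjusted p = 0.00691).

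Gpx1, the main intracellular glutathione peroxidase, measured 301, 191 and 247 FPKM in the Sham rats, 630, 454 and 644 in the MI rats, and 821, 917 and 608 in the DAPA rats. Group Sham was separate from both infarcted groups, and DAPA replicate 3 fell among the MI rats. The log2 fold change in MI vs. Sham was 1.23 (SE 0.23, limma adjusted p = 0.00694).

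Gpx4, which reduces phospholipid hydroperoxides within membranes, was listed at 0 to 0.611 FPKM, and only 0 to 19 recovered reads lay behind each value. It was below the filter of 1 FPKM in at least 3 rats, was not tested in any comparison, and its differences between groups were not detectable at this depth. RefSeq lists 4 Gpx4 pseudogenes in the rat. Whether reads of this gene were lost to such copies or to its annotation was not tested, so the low level is uncertain.

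Cat, the peroxisomal enzyme that splits hydrogen peroxide, was nearly level. It measured 30.9, 34.8 and 35.6 FPKM in group Sham, 37.6, 30.6 and 42.6 in group MI, and 43.1, 50.4 and 35.4 in group DAPA. All 3 groups overlapped, and the log2 fold change in MI vs. Sham was 0.11 (95% interval -0.27 to 0.50, limma).

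Prdx3, the peroxiredoxin found in mitochondria alone, was the steadiest member in group Sham, at 29.1, 28.7 and 30.1 FPKM. The MI rats measured 39.4, 34.2 and 63.5 FPKM and the DAPA rats 79.6, 72.2 and 50.2. All infarcted rats exceeded all Sham rats, and MI replicate 3 fell within the range of the DAPA-treated rats. The log2 fold change in MI vs. Sham was 0.57 (SE 0.23, limma unadjusted p = 0.0407, adjusted p = 0.0873), and 0.32 without MI replicate 3.

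Txn2, the mitochondrial thioredoxin that supplies Prdx3 with electrons, measured 60.7, 47.2 and 66.6 FPKM in group Sham, 49.4, 56.3 and 55.7 in group MI and 61.5, 75.0 and 55.8 in group DAPA, with overlap throughout. Prdx5, a peroxiredoxin that also draws on thioredoxin, measured 83.0, 56.6 and 79.0 FPKM in group Sham, 99.5, 79.5 and 96.2 in group MI and 140, 125 and 85.8 in group DAPA. MI replicate 2 was the MI rat that fell below the highest Sham rat. In MI vs. Sham the log2 fold changes were -0.10 for Txn2 (95% interval -0.49 to 0.29) and 0.34 for Prdx5 (95% interval -0.11 to 0.79).

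In MI vs. Sham, 5 of the 9 members lay above group Sham without overlap and 1 below, where 27.1% of all genes tested lay above and 27.5% below. With 3 rats against 3, the exact permutation test gave each of these 6 members its smallest possible p of 0.1.

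**Figure D2:**
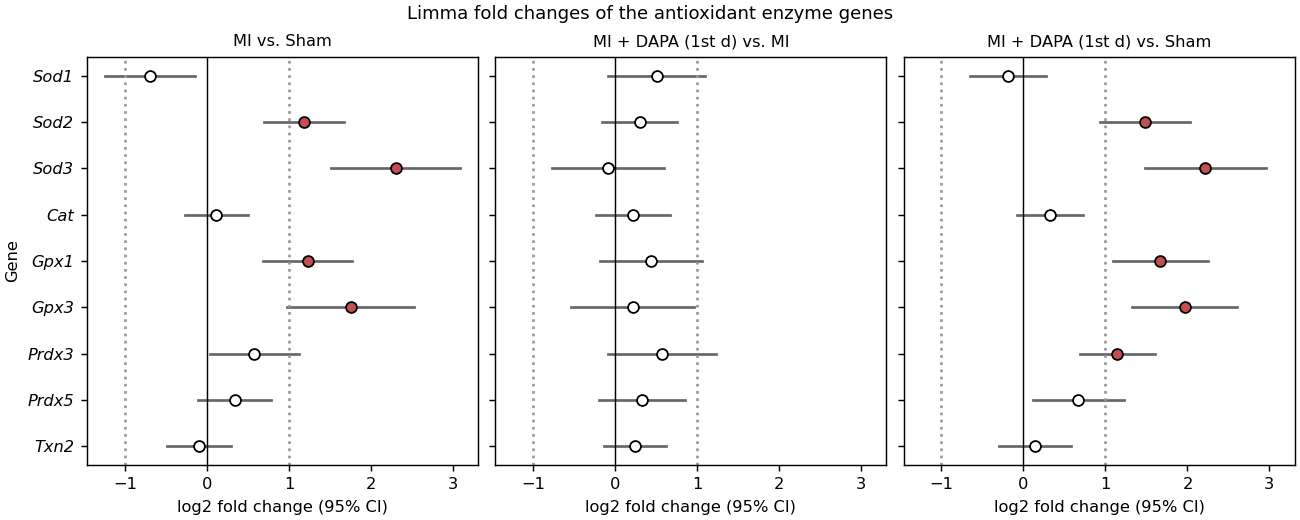
Limma log2 fold change of log2(FPKM + 1) for the 9 members tested, with 95% confidence intervals, in the 3 comparisons; filled points are called and dotted lines mark a log2 fold change of 1 in either direction. The 4 members called in MI vs. Sham are joined by Prdx3 in DAPA vs. Sham, and no member is called in DAPA vs. MI.

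The comparison of group DAPA with group MI asks what DAPA treatment changed in the infarcted ventricle. No member was called, 0 higher and 0 lower of 9, and 0 had an unadjusted limma p under 0.05. Among all 13251 genes tested, 0.951% were called higher and 1.11% lower, 608 and 517 had an unadjusted p under 0.05 in each direction, and 0 passed the adjusted threshold. Leaving out each of the 6 rats in turn moved these counts, from 38 higher and 73 lower without MI replicate 2 to 408 and 153 without MI replicate 3. All 9 members overlapped between the groups, where 6.63% of all genes lay higher and 7.16% lower without overlap. The largest log2 fold changes were 0.57 for Prdx3 (95% interval -0.09 to 1.24, limma unadjusted p = 0.0803), 0.51 for Sod1 (95% interval -0.08 to 1.09, limma unadjusted p = 0.0814) and 0.44 for Gpx1 (95% interval -0.19 to 1.06). For these 3 genes the intervals reached beyond a log2 fold change of 1, so changes of that size were not excluded by these rats. Sod2, Prdx5, Txn2, Gpx3 and Cat had values from 0.21 to 0.33, and Sod3 had -0.09. The limma adjusted p-values of the members ran from 0.558 to 0.922. The members' median was 0.30, with -0.02 over all genes tested.

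Group DAPA compared with group Sham shares the rats of both comparisons above. Sod3, Gpx3, Gpx1, Sod2 and Prdx3 were called higher, 5 of 9 members, and 0 were called lower, where 9.54% of the 13359 genes tested were called higher and 8.16% lower. The log2 fold changes were 2.21 for Sod3 (SE 0.32, limma adjusted p = 0.00381), 1.97 for Gpx3 (SE 0.28, limma adjusted p = 0.00350) and 1.67 for Gpx1 (SE 0.25, limma adjusted p = 0.00440). Sod2 followed at 1.48 (SE 0.23) and Prdx3 at 1.15 (SE 0.20), with limma adjusted p-values of 0.00516 and 0.00651. Prdx5 lay above group Sham in all 3 treated rats with a log2 fold change of 0.67 (limma unadjusted p = 0.0246, adjusted p = 0.0732), short of a call. Cat, Txn2 and Sod1 had 0.33, 0.14 and -0.19 and overlapped group Sham. In all, 6 members lay above group Sham without overlap and 0 below, beside 23.2% and 23.3% of all genes. Prdx3 was thus called against group Sham in the treated rats and not in group MI, but the difference between these groups, 0.57, did not pass the test.

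A difference taken within a library depends little on how libraries are scaled to each other. Each member was therefore set against the mean log2(FPKM + 1) of 73 nuclear subunits of oxidative phosphorylation (OXPHOS), the complexes of the respiratory chain. That mean itself was 0.79 lower in MI vs. Sham and 0.93 higher in DAPA vs. MI, on the log2 scale. Against it, all 9 members were higher in MI vs. Sham, by 0.10 for Sod1 up to 3.10 for Sod3. For 7 members, all except Sod1 and Txn2, the MI rats lay wholly above the Sham rats, as did 44.4% of all genes tested (exact permutation p = 0.1, 0.15 when adjusted over the 18 values of 9 members and 2 lists). In this comparison Sod1 was the member closest to the subunits: its excess over their mean was 0.45, 0.35 and 0.43 in the Sham rats and 0.50, 0.71 and 0.30 in the MI rats, with overlap. Without MI replicate 2 the difference of Txn2 went from 0.70 to 0.34 and that of Sod1 from 0.10 to -0.0038.

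Between group DAPA and group MI the sign was the opposite for every member. All 9 were lower relative to the subunits in the treated rats, by 0.35 for Prdx3 to 1.01 for Sod3. The subunit mean itself was 0.93 higher in this comparison, so a gene at the median of all genes, -0.02, would come out lower as well. Cat and Gpx1 were separate between the groups, with differences of -0.71 and -0.49 (exact permutation p = 0.1, 0.277 adjusted), where 36.7% of all genes tested lay lower without overlap against the subunits. Without MI replicate 2 the differences of Sod2, Txn2, Prdx5 and Prdx3 shrank from -0.63, -0.69, -0.60 and -0.35 to -0.25, -0.33, -0.38 and -0.21, and all 9 stayed below 0. The level of Gpx1 over the subunit mean was 2.09, 2.38 and 1.70 in the MI rats and 1.62, 1.43 and 1.66 in the treated rats. Compared with group Sham, 5 members were higher relative to the subunits in all treated rats, and Sod1 was lower by 0.32, without overlap. Of all genes tested in that comparison, 9.44% lay higher and 19% lower relative to the subunits without overlap.

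Against the mean of 20 cardiomyocyte markers, Sod3, Gpx3, Gpx1, Sod2 and Prdx3 lay higher in all MI rats than in all Sham rats, by 2.80, 2.25, 1.72, 1.68 and 1.07 on the log2 scale. The same held for 11.6% of all genes tested, and the other 4 members overlapped. The marker mean itself was 0.50 lower in MI vs. Sham. Without MI replicate 2, the library with the fewest cardiomyocyte transcripts, Sod2 was at 1.05 and Prdx3 at 0.68 in place of 1.68 and 1.07. In the treated rats all 9 members had lower means than in group MI relative to these markers, with overlap for each, while 10.5% of all genes tested lay lower without overlap. The marker mean was 1.22 higher in DAPA vs. MI, so any gene that rose by less comes out lower. Without MI replicate 2 the difference of Sod2 shrank from -0.92 to -0.29. Compared with group Sham, Sod3 and Gpx1 lay higher in all treated rats, by 1.49 and 0.94, Sod1 lay lower by 0.91, and the other 6 members overlapped. Of all genes tested, 2.2% lay higher and 40.4% lower in this way, and the marker mean was 0.72 higher in DAPA vs. Sham.

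**Figure D3:**
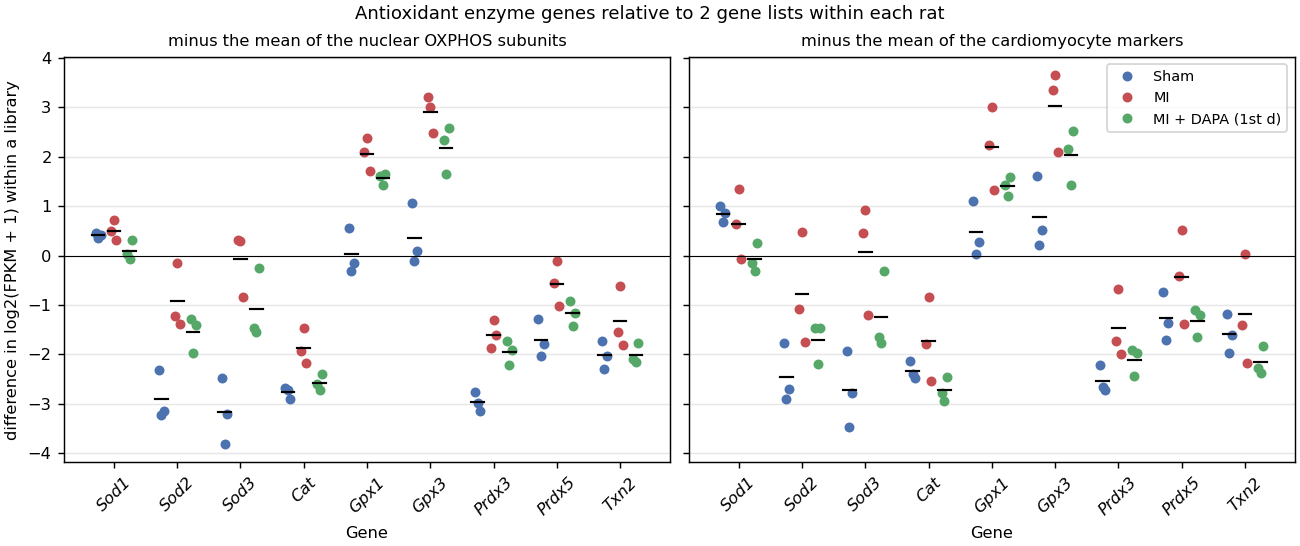
Level of each member minus the mean of 73 nuclear OXPHOS subunits (left) or of 20 cardiomyocyte markers (right) within the same library, as a difference in log2(FPKM + 1), with a point per rat and a bar for the group mean. On the left, Sod1 stays near its Sham level in group MI while Sod3 lies 3.10 higher, and every member has a lower mean in group DAPA than in group MI.

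Ratios between members show how the composition of the set moved. The ratio of Sod2 to Sod1 was 0.102 ± 0.036 over the Sham rats, 0.383 ± 0.139 over the MI rats and 0.324 ± 0.070 over the DAPA rats (SD, n = 3). The ratio of extracellular Sod3 to Sod1 was 0.086 ± 0.038, 0.693 ± 0.219 and 0.464 ± 0.188 in the same order. Both were higher in every infarcted rat than in any Sham rat. Gpx3 to Gpx1 was 1.25 ± 0.145 in group Sham and 1.81 ± 0.326 in group MI, in separate ranges, and 1.57 ± 0.377 in the treated group. Txn2 to Prdx3, the thioredoxin over the peroxiredoxin it serves in mitochondria, was 1.98 ± 0.296, 1.26 ± 0.385 and 0.975 ± 0.179, lower in all infarcted rats than in group Sham. Cat to Gpx1 was 0.143 ± 0.040 in the Sham rats, 0.0644 ± 0.0041 in the MI rats and 0.0553 ± 0.0029 in the treated group. The ranges of this ratio were separate in every comparison. Prdx5 to Prdx3 was 2.48 ± 0.454 over the Sham rats and 1.74 ± 0.024 over the DAPA rats, lower in all DAPA rats than in any Sham rat (exact permutation p = 0.1, 0.12 adjusted over the 6), and overlapped between group Sham and group MI. Of the 6 ratios, 5 gave an exact permutation p of 0.1 in MI vs. Sham (0.12 adjusted over the 6), the smallest that 3 rats against 3 allow, and only Cat to Gpx1 gave 0.1 in DAPA vs. MI (0.6 adjusted). In MI vs. Sham the ratios of Sod2 and Sod3 to Sod1 had to separate, since Sod2 and Sod3 lay above group Sham and Sod1 below it. They restate the levels of the single genes. How often ratios of other gene pairs separate was not computed.

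The scaling between libraries sets the zero of these differences, and the mitochondrial genome took most of the Sham reads. The deposited values were already close to median ratio scaling, with factors from 0.988 to 0.999, and the median log2 fold change of all genes in MI vs. Sham was -0.01. They were not scaled to the total of recovered reads. Sod1 had 1906 reads at 278 FPKM in Sham replicate 1 and 2647 reads at 209 FPKM in MI replicate 1. These 2 libraries held 16899773 and 15565791 recovered reads. When each library was instead rescaled to the same sum over all genes (TPM), that median moved up to 1.3, and 9214 genes were called higher and 198 lower, against 1634 and 1390 as deposited. In DAPA vs. MI the calls went from 126 higher and 147 lower to 54 and 557 under TPM, and to 186 and 335 with the mitochondrial genome left out. In DAPA vs. Sham they went from 1274 and 1090 to 6683 and 154. Under TPM, 8 members were called higher in MI vs. Sham, and Sod1 had a log2 fold change of 0.86 in place of -0.70. Relative to the shifted median, Sod1 was at -0.44, Txn2 at 0.13, Cat at 0.33 and the 4 members called on the deposited scale between 1.41 for Sod2 and 2.52 for Sod3. The change of sign of Sod1 under TPM thus went with the shift of all genes. Txn2 lay near 0 and still changed sign after the subtraction, from -0.09 as deposited to 0.13 under TPM. Each scaling multiplies a library by 1 factor, which shifts all genes nearly alike and drops out when the median is subtracted. What is left to differ comes from the 1 added before the logarithm and from the filter. Likeness between scales after the subtraction was therefore built in and is no separate test. Relative to the median of all genes, Sod1 lay below 0 on all 4 scales tried. It was at -0.69 as deposited, -0.72 without the mitochondrial genome and -0.69 by median ratio scaling, while Txn2 lay at -0.09, -0.12 and -0.09 on these. Sod3, Gpx3, Gpx1 and Sod2 were higher in group MI on all 4 scales, before and after this subtraction.

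**Figure D4:**
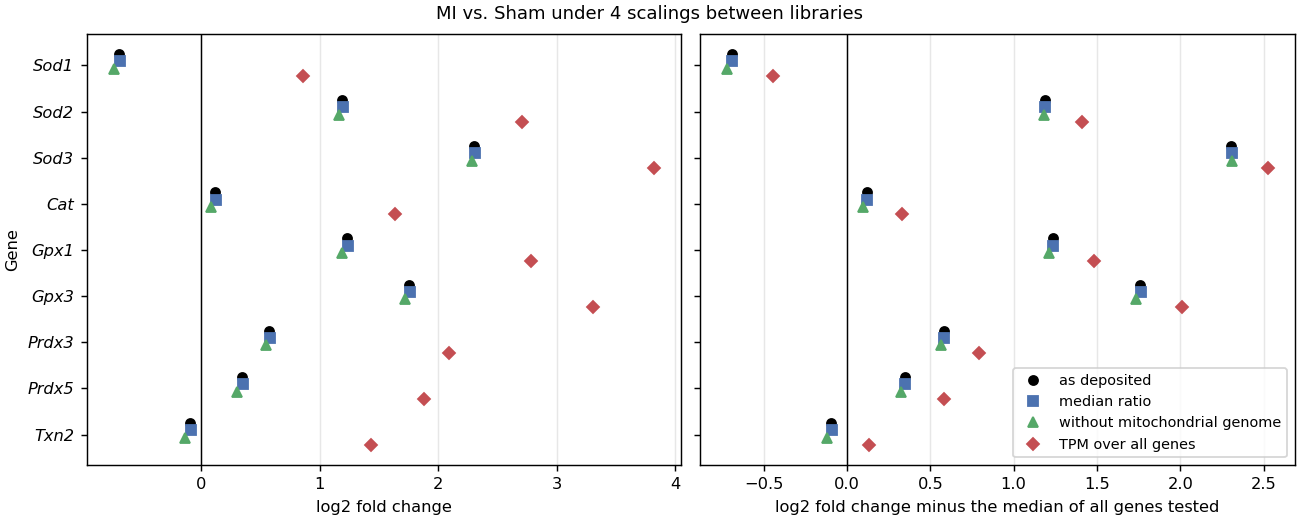
Log2 fold change in MI vs. Sham for the 9 members tested under 4 scalings between libraries, as fitted (left) and after subtracting the median of all genes tested under that scaling (right). TPM over all genes moves every member to the right on the left panel, with Sod1 from -0.70 to 0.86, and on the right panel Sod1 lies below 0 under each scaling. Each scaling is 1 factor per library, so it largely drops out on the right panel by construction.

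Other genes of the same pathways are described by lists. Beside all counts that follow, 12.1% of all genes tested were called higher and 10.3% lower in MI vs. Sham. In DAPA vs. MI these shares were 0.951% and 1.11%. The counts called higher in MI vs. Sham in the thioredoxin, glutathione, NADPH, NRF2 and selenoprotein lists lay near the share of all genes. Of 15 other genes listed with the thioredoxin system, glutaredoxins and further peroxiredoxins included, 2 were called higher in MI vs. Sham and 0 lower (median 0.07). These were glutaredoxin Glrx (log2 fold change 1.99, SE 0.28) and the cytosolic peroxiredoxin Prdx6 (1.16, SE 0.19), and no thioredoxin or thioredoxin reductase was called. Txnrd2, the mitochondrial reductase that recharges Txn2, had -0.38, and the thioredoxin-binding protein Txnip had -0.09, neither passing the test. Of 19 genes of the glutathione system, 2 were called higher and 2 lower, a median of 0.11. Gpx8, a peroxidase of the endoplasmic reticulum, rose by 1.87 (SE 0.19) and the glutathione transferase Gstm2 by 1.43 (SE 0.14), while the transferase Gstp1 was called lower at -1.68 (SE 0.19). Glutathione reductase, Gsr, had 0.37 (limma unadjusted p = 0.0370), short of a call.

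NADPH feeds both systems. Of 9 genes listed for its supply, NAD kinases and a transhydrogenase included, 1 was called higher in MI vs. Sham. This was Mthfd2, of mitochondrial folate metabolism (1.82, SE 0.41). Idh2, the mitochondrial isocitrate dehydrogenase, was the 1 called higher in DAPA vs. MI (1.10, SE 0.40, limma adjusted p = 0.558). Idh2 measured 133, 86.9 and 241 FPKM in the MI rats and 295, 407 and 232 in the treated rats, and the groups overlapped. Nnt, the transhydrogenase of the inner membrane, had 0.54 in MI vs. Sham and 0.58 in DAPA vs. MI, neither passing the test.

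Among 18 regulators and targets of NRF2, 2 were called higher in MI vs. Sham and 0 lower (median 0.34), beside 12.1% and 10.3% of all genes tested. These were heme oxygenase Hmox1 (1.92, SE 0.30) and the related factor Nfe2l1 (1.48, SE 0.25). NRF2 itself, Nfe2l2, had 0.21 and its repressor Keap1 had -0.47, neither called. Hmox1 measured 30.2, 41.1 and 24.8 FPKM in the MI rats and 24.6, 15.3 and 17.5 in the treated rats, a log2 fold change of -0.71 (limma unadjusted p = 0.0230, adjusted p = 0.558), short of a call. Of 21 selenoproteins and genes of their synthesis, 3 were called higher and 2 lower (median 0.25), led by Selenow (2.91), Selenop (2.37, SE 0.40) and Selenon (1.73, SE 0.23). Selenop, the plasma carrier of selenium, had -0.82 in DAPA vs. MI (limma unadjusted p = 0.0343, adjusted p = 0.558), below the fold change needed. The value of Selenow carried an SE of 1.14, with 137 FPKM in Sham replicate 2 beside 7.52 and 4.68 in the other Sham rats.

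Of 6 genes listed as metal and acetylation partners of superoxide dismutases, the copper importer Slc31a1 was called higher in MI vs. Sham (1.57, SE 0.33), and 0 were called lower. With no fold change threshold, 3 of the 6 had a limma adjusted p under 0.05, 1 higher and 2 lower. Ccs, the copper chaperone of Sod1, had -0.28, and Sirt3, the mitochondrial deacetylase that acts on Sod2, had -0.54, neither passing the test. Among 24 peroxisome genes, where Cat resides, 0 were called higher and 4 lower (median -0.02), among them Pxmp2 (-1.62, SE 0.39), Ech1 (-1.07, SE 0.27) and Pex11a (-1.07, SE 0.30). Pxmp2, a membrane channel, was the 1 gene of that list called higher in DAPA vs. MI (1.26, SE 0.43). Of 7 methionine sulfoxide reductases and metallothioneins, Mt2A (3.53, SE 0.51) and Msrb3 (1.38, SE 0.28) were called higher in MI vs. Sham and Mt3 (-2.57, SE 0.40) lower.

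The nuclear OXPHOS subunits build the respiratory chain in which superoxide arises. Of 73 tested, 0 were called higher and 29 lower in MI vs. Sham (median -0.83), and 24 were called higher and 0 lower in DAPA vs. MI (median 0.93). In DAPA vs. MI, 0 of the 73 had a limma adjusted p under 0.05. All 20 cardiomyocyte markers were higher there as well, with a median of 1.26. Cox8b, a subunit of complex IV, had -3.28 (SE 0.59) in MI vs. Sham and 1.63 (SE 0.60) in DAPA vs. MI. Atp5me of the ATP synthase and Ndufa5 of complex I had -2.10 and -2.07 in MI vs. Sham, and Ndufc1 of complex I had 1.35 in DAPA vs. MI. Apart from Idh2, Pxmp2 and the OXPHOS subunits, 0 genes of the pathway lists above were called in DAPA vs. MI.

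**Figure D5:**
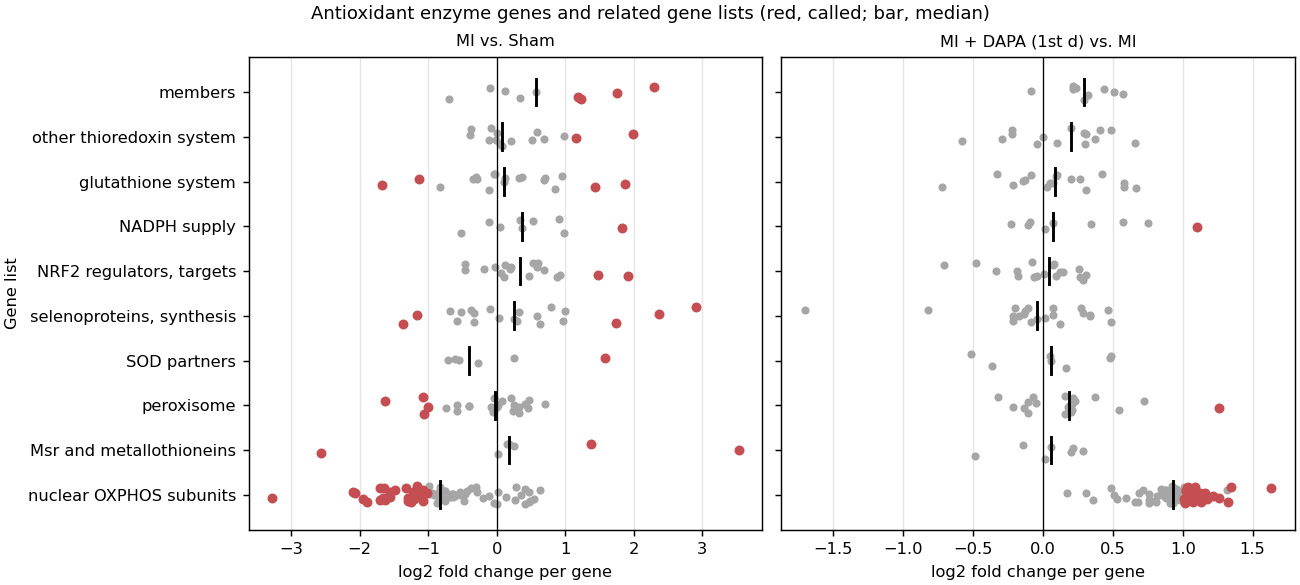
Log2 fold change of each tested gene in the members and 9 related gene lists, in MI vs. Sham (left) and DAPA vs. MI (right), with called genes in red and the list median as a bar. The members' median lies at 0.57 and 0.30, and that of the OXPHOS subunits at -0.83 and 0.93.

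Genes with the most similar pattern were found for each of the 9 members tested by Pearson's r of log2(FPKM + 1) over the 9 libraries, among 6699 genes with a symbol and a mean of at least 3. These are descriptions over libraries that share their group differences and depth. Sod1 was closest to Ldhd (r = 0.992), a mitochondrial lactate dehydrogenase, and to the complex I subunits Ndufa3 (0.990) and Ndufb9 (0.989). Ndufb9 averaged 865, 298 and 684 FPKM over the Sham, MI and DAPA rats, the same order as Sod1. Sod3 was closest to Glg1 (0.994), Pofut2 (0.992) and Islr (0.991), and Gpx3 to Ltbp2 (0.995), a matrix protein, RGD1562690 (0.988) and Zfand3 (0.986). Ltbp2 averaged 4.08, 84.4 and 80.7 FPKM in the same order.

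Prdx3 was closest to Ivd (0.982), Got2 (0.979) and Idh3a (0.979), which encode enzymes of the mitochondrial matrix. Got2, an aminotransferase, averaged 54.0, 82.7 and 124 FPKM. Sod2 was closest to Oaz1 (0.992), Afg3l1 (0.986) and Capza2 (0.985), Gpx1 to Pdlim7 (0.983), Vnn1 (0.982) and Aldh2 (0.981), and Cat to Ddt (0.974), St3gal5 (0.971) and Gramd2b (0.964). Prdx5 was closest to Dda1 (0.987), Tomm40 (0.965) and Eapp (0.964). The nearest genes to Txn2, Trappc6a (0.932), Mrps33 (0.883) and Gstk1 (0.878), lay farther off than those of any other member. Among the members themselves, r was 0.959 between Gpx1 and Gpx3, 0.955 between Sod3 and Gpx3, 0.948 between Sod2 and Gpx1, and -0.54 between Sod1 and Sod3.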

How the data were processed

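Total RNA of the left ventricles was sequenced as paired ends by the authors, and the study used DESeq2 for its own comparisons. The authors deposited FPKM values per rat. The submitters' processing notes name HISAT2 2.0.5, StringTie 1.3.3b and featureCounts 1.5.0-p3, and the genome build is not given in the sources used here. Rats were grouped by their titles, and 0 columns were left unused. The study's methods place its molecular work mainly at the infarct edge, with the scar removed. Its account of the RNA-seq speaks of infarct myocardium, so the site of these libraries is not settled.

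Because FPKM is no count, limma 3.58.1 (R 4.3.3) was fitted to log2(FPKM + 1), 2 groups at a time, with no covariate, its prior variance allowed to vary with expression. Tested genes had to reach an FPKM of 1 in 3 or more of the 6 rats, with Benjamini-Hochberg adjustment over all of them. Fold changes on this scale understate those of low genes. Two-sided exact permutation tests served for levels within libraries and for 6 ratios between members rather than the 7 planned, since Gpx4 rested on too few reads. Whole reads were recovered from the steps of the FPKM values for all 18896 genes seen in at least 4 libraries (tolerance 0.02). Intervals cover the spread between rats. Python 3.11.15 with numpy 2.4.6 and pandas 2.3.3 was used, with matplotlib 3.10.9 for plots. Windows before gene starts were searched in RefSeq sequences of build GRCr8.

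The members, the gene lists and the tests were chosen with earlier results of these data known. Genes were named by rule: all members, 10 genes of interest (Txnrd2, Nnt, Gsr, Sirt3, Nfe2l2, Keap1, Hmox1, Ccs, Selenop and Txnip), per list at most 3 genes called in MI vs. Sham and 2 called in DAPA vs. MI with the largest change, and the 3 genes most similar to each member. Listed genes without a row, such as Pecam1, were not analysed here. Summed red blood cell markers ranged from 13.7 to 5842 FPKM, T cell markers from 7.51 to 99.7, smooth muscle markers from 408 to 1447 and adipocyte markers from 0 to 9.37. Alternatives were another pseudocount, no filter, 1 fit of all 9 rats, a replicate block, 3 other scalings, a constant prior variance, other thresholds and each rat left out.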

Additional observations from a re-analysis of the deposited data

How the results depend on the processing

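With 3 rats a group and 281 reads behind the lowest value of a tested member (Sod3 in Sham replicate 2), only large differences could pass. The counts of members called were the same with a pseudocount of 0.1, without a filter, with all 9 rats in 1 fit, with a constant prior variance, by median ratio scaling and with the mitochondrial genome left out. With no fold change threshold at an unadjusted p under 0.05, 1 member, Sod1, was lower in MI vs. Sham. TPM over all genes changed the most. In MI vs. Sham it called 8 members higher with a median of 2.09, and Sod1 and Txn2 turned to 0.86 and 1.43. In DAPA vs. MI the median became -0.069, as all genes shifted by -0.34, and Sod2, Cat, Gpx3, Prdx5 and Txn2 turned to -0.069, -0.15, -0.16, -0.041 and -0.12. In DAPA vs. Sham it called 8 members higher with a median of 2.30, and Sod1 turned to 0.99 while all genes shifted by 1.00. Leaving out each rat moved the members' median in MI vs. Sham between 0.32, without MI replicate 3, and 0.75, with 4 members called higher each time. Values near 0 changed sign: Txn2 in MI vs. Sham ranged from -0.24 to 0.0040, Txn2 in DAPA vs. Sham from -1.3e-04 to 0.24, and in DAPA vs. MI Sod3 from -0.29 to 0.17 and Gpx3 from -0.053 to 0.43. None of these passed the test.

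Rats of different groups share a replicate number only. Their deviations from group means correlated by 0.014 on average for equal numbers in MI vs. Sham, -0.21 in DAPA vs. MI and 0.11 in DAPA vs. Sham. For different numbers the averages were -0.0067, 0.11 and -0.052 in the same order. In the fit with a replicate block, 4, 0 and 5 members were called higher in these comparisons and 0 lower, as without it, while all genes called in DAPA vs. MI went from 126 higher and 147 lower to 71 and 146.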
